A study of Mus musculus with 2 samples.

Results

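Transcripts of 73 heat shock proteins and DnaJ chaperones were followed through the cell classes of 2 single-cell RNA-seq libraries from mouse bone marrow. The members were every gene symbol of the form Hspa, Hspb, Hspd, Hspe, Hsph or Hsp90, or Dnaja, Dnajb or Dnajc, followed by a number, which gave 73 of the 32286 features in both libraries (28 Hsp and 45 Dnaj genes). The rule reads gene symbols and no measured value, but the members and gene lists were chosen with earlier results of these data known. The members were split by role into 8 stress-inducible cytosolic, 13 constitutive cytosolic and nuclear, 10 endoplasmic reticulum and 8 mitochondrial chaperones, 6 other small heat shock proteins and 28 remaining members. All but 3 of the 73 had at least 1 UMI (unique molecular identifier, a count of 1 captured transcript) in the cells kept, and 64 had at least 50.

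The cells came from male Adipoq-CreERT2;Ai9 mice, in which tamoxifen lets a Cre recombinase driven by Adipoq switch on the red protein tdTomato in cells that express Adipoq. Every mouse had tamoxifen by oral gavage at 8 weeks of age on 3 days. The pulse library was made from bones taken 24 hours later and the chase library from bones taken 4 weeks later, which also makes the chase mice older at harvest. The labels give 4 mice for the series and not how many went into each library. Cells were digested from the endosteal surface of femur and tibia, and the bright tdTomato-positive cells were sorted. They made up 0.01% of the total for pulse and 0.29% for chase. There was 1 library for each time, so no difference between the times could be tested. The intervals below are exact 95% intervals for counting error only, and they leave out the spread between mice, sorts and library preparations. Those of levels and ratios come from UMIs pooled over cells, so they also leave out the spread between cells.

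Chaperones bind proteins that are not folded and help them fold, move or be degraded. Hsp70 proteins (Hspa genes) hold and release their clients with the energy of ATP, J-domain proteins (Dnaj genes) deliver clients to them and start ATP cleavage, Hsp90 proteins finish the folding of kinases and receptors, and small heat shock proteins (Hspb genes) keep damaged proteins from clumping. Heat and other protein-damaging stress act through the transcription factor HSF1, which binds heat shock elements built of repeated GAA and TTC triplets. The endoplasmic reticulum and the mitochondrion have their own Hsp70, Hsp90 or chaperonin, and stress inside the endoplasmic reticulum acts on the endoplasmic reticulum stress element of the genes that serve it.

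The sequence just before 4 member genes shows these elements. Hspa1a and Hspa1b, the stress-inducible Hsp70 genes, are printed whole to show how alike they are, Hspe1, the mitochondrial co-chaperonin, for its run of heat shock units, and Hspa5, the Hsp70 of the endoplasmic reticulum, for its stress element. Each reads 5′ to 3′ on the gene's own strand, from RefSeq on GRCm38.p6. Capitals mark GAANNTTC in Hspa1a and Hspa1b, overlapping matches to TTCNNGAANNTTC and GAANNTTCNNGAA in Hspe1, and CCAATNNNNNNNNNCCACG in Hspa5. The Hspa1a stretch is chr17:34972157-34972306 and the Hspa1b stretch chr17:34959239-34959388, both on the minus strand. The Hspe1 stretch is chr1:55088053-55088082 and the Hspa5 stretch chr2:34772019-34772048, both on the plus strand.
Hspa1a: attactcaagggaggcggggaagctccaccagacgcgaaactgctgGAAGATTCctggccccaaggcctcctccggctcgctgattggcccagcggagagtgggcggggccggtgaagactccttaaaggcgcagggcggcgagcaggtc
Hspa1b: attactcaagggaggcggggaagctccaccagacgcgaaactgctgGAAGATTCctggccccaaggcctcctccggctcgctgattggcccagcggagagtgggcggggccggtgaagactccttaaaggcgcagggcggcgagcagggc
Hspe1: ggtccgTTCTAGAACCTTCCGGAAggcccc
Hspa5: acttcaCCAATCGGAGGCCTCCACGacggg

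A promoter was found in RefSeq for 58 of the 73 members, and the 250 bases before each start were searched on both strands. The 3-unit heat shock element, GAANNTTCNNGAA or TTCNNGAANNTTC, was in 3 of 58 (Dnajb6, Hspd1 and Hspe1), beside 0.514% of the 27025 genes with a promoter. The Hspd1 and Hspe1 matches are the same stretch of DNA read on opposite strands, so the 3 members do not hold 3 separate sites. This element was in 0 of 7 stress-inducible members. Only exact matches within the 250 bases were counted, so units with a changed letter and sites elsewhere were missed. The 0 thus does not show that these genes lack heat shock elements. The head-to-head part of the 3-unit element alone, GAANNTTC, was in 11 of 58 and in 4 of 7 stress-inducible members, beside 7.73% of all genes. Of those 4, Hspa1a and Hspa1b carry the same match in nearly the same promoter, so they are not separate cases. The tail-to-tail part, TTCNNGAA, was in 6 of 58 and in 2 of 7 stress-inducible members, beside 8.11%. The shorter letters lie within the longer element, so these counts overlap. Hspd1 and Hspe1 enter each of them through their shared site. The endoplasmic reticulum stress element was in 3 members, Hspa5, Hsp90b1 and Dnajc3, all of them chaperones of that compartment, beside 0.130% of all genes. A match describes the letters and does not show that a factor binds.

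The files hold 10608 pulse and 10046 chase barcodes with 89009901 and 82939659 UMIs, of which 9212 and 8335 cells were kept. Each cell was placed in a class by UMIs of marker genes, and the class names below stand for "like" cells, such as CAR-like. CAR cells are the CXCL12-abundant reticular stromal cells that carry Lepr and Adipoq. There were 4281 pulse and 4022 chase CAR cells, of which 732 and 500 also carried bone-forming markers (osteogenic CAR) and 3549 and 3522 did not (adipogenic CAR). Although tdTomato-positive cells were sorted, the libraries also held osteoblasts, endothelial cells and blood cells, among them 1147 and 1020 macrophages with C1q genes. Why they passed the sort was not tested. In each class described, except the osteogenic CAR cells, the markers of its own list had the highest median. In osteogenic CAR cells the CAR list had 120 and 150.2 UMIs per 10000 and the osteogenic list 113 and 123. The median C1q macrophage had 16.5 and 12.1 UMIs of CAR markers per 10000, against 293 and 342 in the median adipogenic CAR cell. The libraries shared 52 barcodes, 20 of them in kept cells.

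Levels are given as CPM, counts scaled to the same total of 1000000 UMIs in every class, pulse first and chase second. They come from the 3′ ends of transcripts, so they are compared between classes and libraries for 1 gene or 1 fixed sum of genes, and not between genes. A class whose own products fill much of its RNA has less room for every other gene: 16 granule and secreted genes took 45.0% and 45.9% of neutrophil UMIs, and 7 bone matrix genes 36.9% and 34.6% of osteoblast UMIs. Neutrophils had the lowest level of the 10 classes for 30 of the 64 members in the pulse library and for 29 in the chase library.

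**Figure D1:**
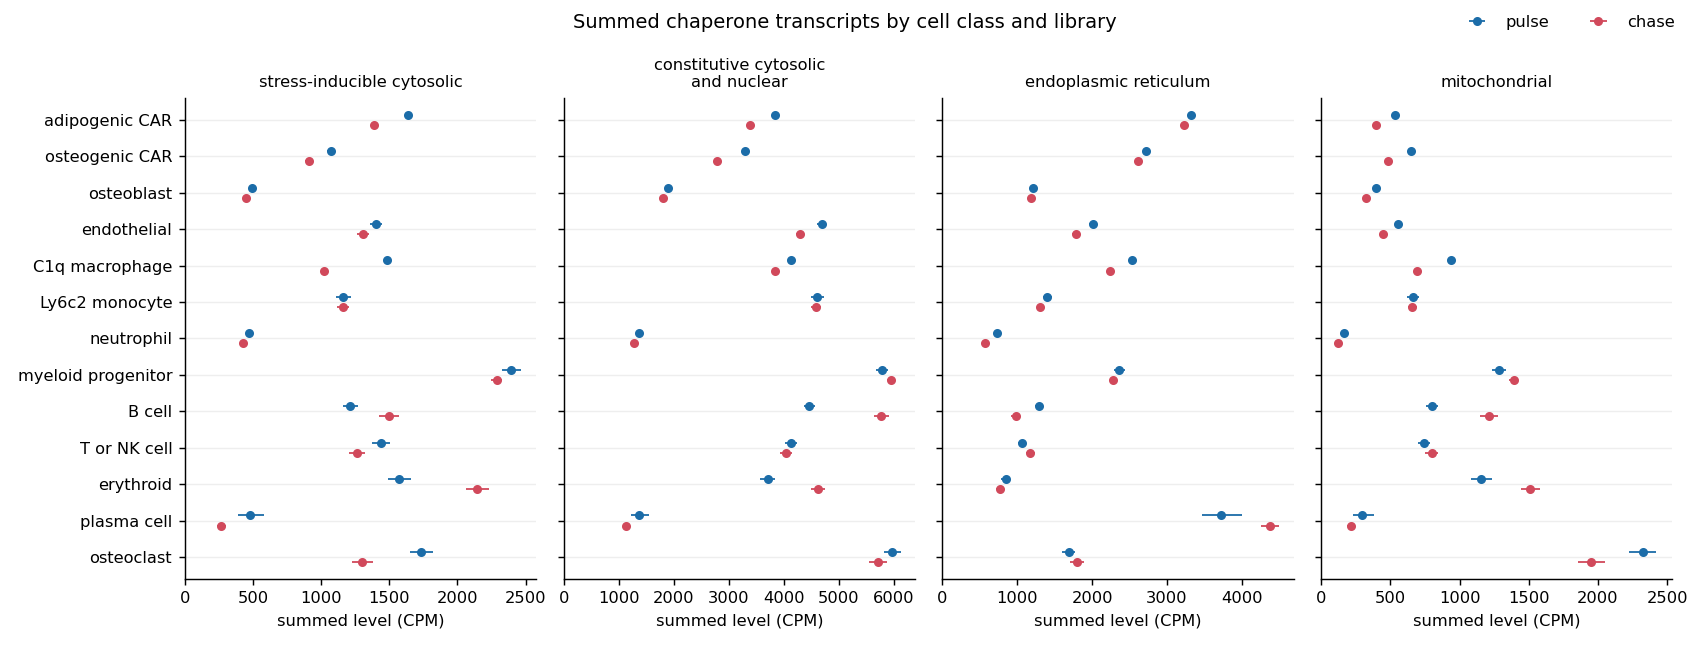
Summed level in CPM (x axis) of the 4 role groups in each cell class (y axis) for the pulse (blue) and chase (red) libraries, with exact 95% intervals for counting error. Myeloid progenitors had the highest stress-inducible sums, 2396 and 2288 CPM, while plasma cells stood out for the endoplasmic reticulum sum and osteoclasts for the mitochondrial sum.

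The stress-inducible members as a sum were at 1637 and 1386 CPM in adipogenic CAR cells, 1070 and 910.5 CPM in osteogenic CAR cells and 491.6 and 450.9 CPM in osteoblasts. This descending order from reticular cell to osteoblast was the same in both libraries. The sum was 1.53-fold (interval 1.49 to 1.57) and 1.52-fold (1.47 to 1.57) higher in adipogenic than in osteogenic CAR cells, and 2.18-fold and 2.02-fold higher in osteogenic CAR cells than in osteoblasts. The steps were smaller for the stress-inducible share of the UMIs of all members. That share was 17.0% and 15.9% in adipogenic CAR cells, 13.3% and 12.8% in osteogenic CAR cells and 11.4% and 11.2% in osteoblasts. Much of the fall in CPM from osteogenic CAR cells to osteoblasts was thus shared with the other members. The fall from adipogenic to osteogenic CAR cells was shared with them only in part. The immediate early genes, a fast transcriptional response that tissue dissociation can set off, were 2.36-fold and 2.24-fold higher in adipogenic than in osteogenic CAR cells, and their part in this result was not tested. The highest sums were in myeloid progenitors, 2396 and 2288 CPM, and the lowest of the 10 classes in neutrophils, 473.4 and 424.4 CPM. Abundant members weigh most in this sum. Hsp90aa1 alone gave 1526 and 1508 CPM of it in myeloid progenitors, and Dnaja1 566 and 529 CPM in adipogenic CAR cells. The order of classes by the sum is thus not the order for each member.

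Hspa1a (chr17:34969190-34972156, minus strand) and Hspa1b (chr17:34956436-34959238, minus strand) code for nearly the same protein. The first 1500 bases of their reading frames differ at 5 positions in GENCODE M21, and 1 of the 150 bases before the start differs, as the printed stretches show. After the stop codon they share 24 bases and then part, so reads from the tail can be told apart only beyond that point. Where the reads fell was not examined, so the split between the genes was treated as uncertain, and their UMIs were summed.

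Hspa1a and Hspa1b together were high in macrophages, monocytes and myeloid progenitors, lower in the reticular cells and lowest in neutrophils. Their summed level was 489 and 231 CPM in C1q macrophages, 343 and 293 CPM in myeloid progenitors, and 229.7 and 206 CPM in monocytes with Ly6c2. Endothelial cells had 95.7 and 88.1 CPM. Adipogenic CAR cells had 44.5 and 49.6 CPM, osteogenic CAR cells 43.5 and 38.1 CPM, osteoblasts 32.0 and 34.3 CPM, and neutrophils 12.7 and 9.13 CPM. B cells had 39.0 and 59.4 CPM, T or NK cells 31.0 and 75.6 CPM and erythroid cells 47.3 and 46.2 CPM. The intervals of adipogenic and osteogenic CAR cells overlapped in the pulse library, and those of osteogenic CAR cells and osteoblasts in the chase library. The order of the leading classes was not the same in the libraries: C1q macrophages led in the pulse library and myeloid progenitors in the chase library. Myeloid progenitors stood 27.0-fold and 32.1-fold above neutrophils, the later stage of that lineage. Osteoclasts, with only 36 and 29 cells, had 255 and 146 CPM.

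The gap between C1q macrophages and CAR cells was smaller in the chase library. It was 11.04-fold (10.4 to 11.7) in the pulse library and 4.84-fold (4.52 to 5.18) in the chase library. The chase-to-pulse ratio of the summed level was 0.473 (0.450 to 0.498) in C1q macrophages, 0.895 (0.775 to 1.03) in Ly6c2 monocytes and 1.08 (1.00 to 1.16) in CAR cells. C1q macrophages were thus 2.13-fold (1.90 to 2.39) above Ly6c2 monocytes in the pulse library and 1.13-fold (1.02 to 1.24) in the chase library. Within the joint clusters that hold C1q macrophages the chase level was lower in 3 of 3: it was 462 and 226 CPM in the largest (580 and 557 cells), 620 and 394 CPM in the next (438 and 226 cells), and 321 and 115 CPM in the smallest (77 and 192 cells). The difference between the classes was not tested.

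The same pattern appeared in shares of cells. With each cell thinned to 2000 UMIs, 39.96% (37.0 to 42.9) of 1091 pulse C1q macrophages and 22.8% (20.1 to 25.5) of 967 chase C1q macrophages had a UMI of Hspa1a or Hspa1b. In CAR cells the shares were 7.61% and 8.26%. In neutrophils the shares were 1.17% and 1.72%, at median depths of 7534 and 8920 UMIs per cell before thinning. Free RNA was not measured, so the neutrophil shares are not a background for other classes. The median neutrophil had 3.66 and 3.47 UMIs of CAR markers per 10000, and the median C1q macrophage 16.5 and 12.1. The source of these CAR-marker UMIs was not tested. Thinning left out 56 and 53 shallower C1q macrophages. Unthinned, 57.6% and 41.6% of the C1q macrophages had a UMI.

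The Hspa1 transcripts were spread unevenly among cells. No UMI of either gene was found in 42.4% of pulse and 58.4% of chase C1q macrophages, while the highest cells held 53 and 68. The top 10% of cells held 50.3% of the class's UMIs of the pair in the pulse library and 66.3% in the chase library. In CAR cells 77.9% and 79.6% had none, and the top 10% held 68.7% and 69.5%. In Ly6c2 monocytes 66.2% and 63.8% had none, and the top 10%, 16 and 21 cells, held 71.7% and 70.1%. In myeloid progenitors 41.2% and 41.1% had none, and the top 10%, 9 and 24 cells, held 59.7% and 52.4%. Comparisons with these smaller classes thus rest largely on few cells, and the intervals of levels and ratios do not cover this spread.

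**Figure D2:**
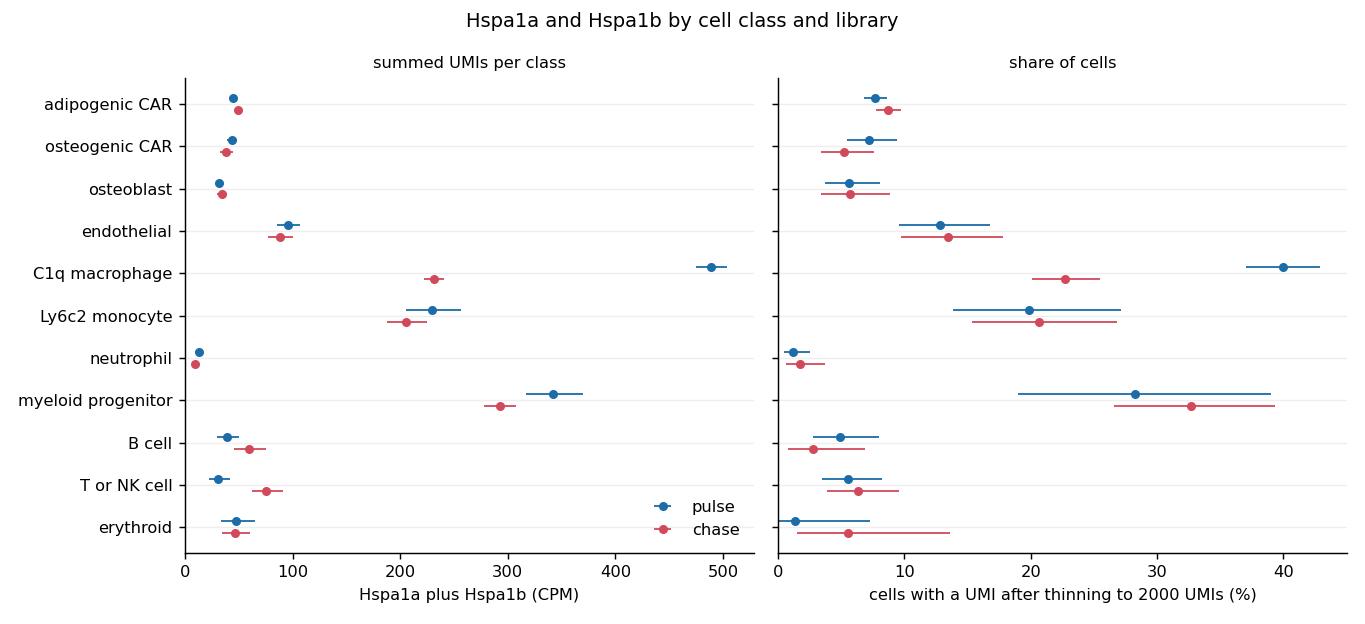
Hspa1a and Hspa1b together in each cell class: the summed level in CPM, and the share of cells with a UMI after thinning to 2000 UMIs per cell, for the pulse (blue) and chase (red) libraries, with exact 95% intervals for counting error. C1q macrophages were at 489 CPM in the pulse library and at 231 CPM in the chase library, while adipogenic CAR cells were at 44.5 and 49.6 CPM.

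Dnajb1 (chr8:83608193-83612653, plus strand), the J-domain partner that works with inducible Hsp70, had a different distribution from the Hspa1 pair. It was at 319 and 262 CPM in adipogenic CAR cells, and the next class, endothelial cells, had 138 and 111 CPM. This put adipogenic CAR cells 2.30-fold (2.09 to 2.54) and 2.36-fold (2.0997 to 2.669) above every other class, and 2.91-fold and 2.80-fold above osteogenic CAR cells. C1q macrophages, the highest class for Hspa1a and Hspa1b in the pulse library, were thus well below adipogenic CAR cells for Dnajb1. Dnaja1, a farnesylated J-domain protein of the cytosol, was at 566 and 529 CPM in adipogenic CAR cells, 538 and 539 CPM in endothelial cells, 602 and 485 CPM in T or NK cells and 169.8 and 166 CPM in osteoblasts.

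Hspb1 (chr5:135887919-135889563, plus strand), a small heat shock protein that binds actin and damaged proteins, was confined neither to stroma nor to vessels. Its level was 195 and 193 CPM in endothelial cells, 135 and 73.9 CPM in adipogenic CAR cells and 21.03 and 9.87 CPM in osteogenic CAR cells. Adipogenic CAR cells were 6.42-fold and 7.48-fold above osteogenic CAR cells. After thinning, 27.7% and 27.5% of endothelial cells had a UMI of Hspb1, as did 17.1% and 10.2% of adipogenic CAR cells. In C1q macrophages the shares were 1.01% and 0.517%, below those of neutrophils, 1.37% and 0.862%. The macrophage shares were treated as too low to read, since free RNA was not measured. Endothelial cells thus held their Hspb1 level between the libraries, with overlapping intervals, while the chase-to-pulse ratio was 0.568 (0.537 to 0.600) in all CAR cells.

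Hsp90aa1, the stress-responsive cytosolic Hsp90, was highest in myeloid progenitors in the pulse library, at 1526 and 1508 CPM. Erythroid cells had 1047 and 1629 CPM and led in the chase library. Adipogenic CAR cells had 427 and 323 CPM, osteoblasts 176 and 127 CPM and neutrophils 164 and 183 CPM. Hsph1, an Hsp110 that exchanges the nucleotide on Hsp70, was at 33.2 and 23.6 CPM in CAR cells and at 49.2 and 25.4 CPM in C1q macrophages. Dnajb4, a J-domain protein of the Dnajb1 type, was at 103 and 117 CPM in CAR cells.

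Among the constitutive chaperones, Hspa8, the Hsp70 present in unstressed cells, was at 1859 and 1665 CPM in adipogenic CAR cells, 1895 and 1755 CPM in endothelial cells and 1994 and 1894 CPM in myeloid progenitors. It was lower in osteoblasts, at 603 and 576 CPM, and in neutrophils, at 492 and 462 CPM. Hsp90ab1, the Hsp90 of unstressed cytosol, was at 1269 and 1073 CPM in adipogenic CAR cells, 1355 and 1168 CPM in osteogenic CAR cells and 2671 and 2950 CPM in myeloid progenitors. For Hsp90ab1 the osteogenic CAR cells were therefore above the adipogenic ones, the reverse of the order for Hspa8.

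Of the 64 members with at least 50 UMIs, 44 had the same highest class in both libraries, where 66.4% of all 15297 genes did. A level at least 2-fold above every other class in both libraries, with at least 20 UMIs in the highest class in each, was found for 6 members, where 15% of all genes had such a class. The 6 of 64 are a smaller share than that background. The 6 were Dnajb1 in adipogenic CAR cells, Hspb2 in osteoblasts, Hspb8 and Hspa12b in endothelial cells, Dnajc7 in B cells and Dnajb2 in erythroid cells.

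Hspb2 (chr9:50751078-50752354, minus strand), a small heat shock protein best known in muscle, was at 53.5 and 37.6 CPM in osteoblasts. The next class, osteogenic CAR cells, had 1.68 and 1.15 CPM, from 12 and 5 UMIs, so osteoblasts stood 31.8-fold (18.1 to 62.0) and 32.7-fold (13.8 to 102) above it. Cryab, the small heat shock protein gene next to Hspb2, was at 259 and 189 CPM in osteoblasts. Hspb8, a small heat shock protein that works with BAG3 in autophagy of damaged proteins, was at 12.96 and 10.8 CPM in endothelial cells, 5.90-fold and 5.05-fold above the next class. Hspa12b, an atypical Hsp70 known from endothelium, was at 49.0 and 41.2 CPM there, 21.6-fold and 20.1-fold above the next class.

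Dnajc7, which passes clients between Hsp70 and Hsp90, was at 470.4 and 398 CPM in B cells. This was 4.39-fold and 4.40-fold above the next class. Within the B lineage the cells with Vpreb3, an early B-cell gene, had 703 and 413 CPM, and the mature B cells were at 0.396 and 0.537 of that level. Dnajb2, a J-domain protein that carries ubiquitinated clients to the proteasome, was at 104 and 86.2 CPM in erythroid cells, 3.72-fold and 2.57-fold above the next class.

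**Figure D3:**
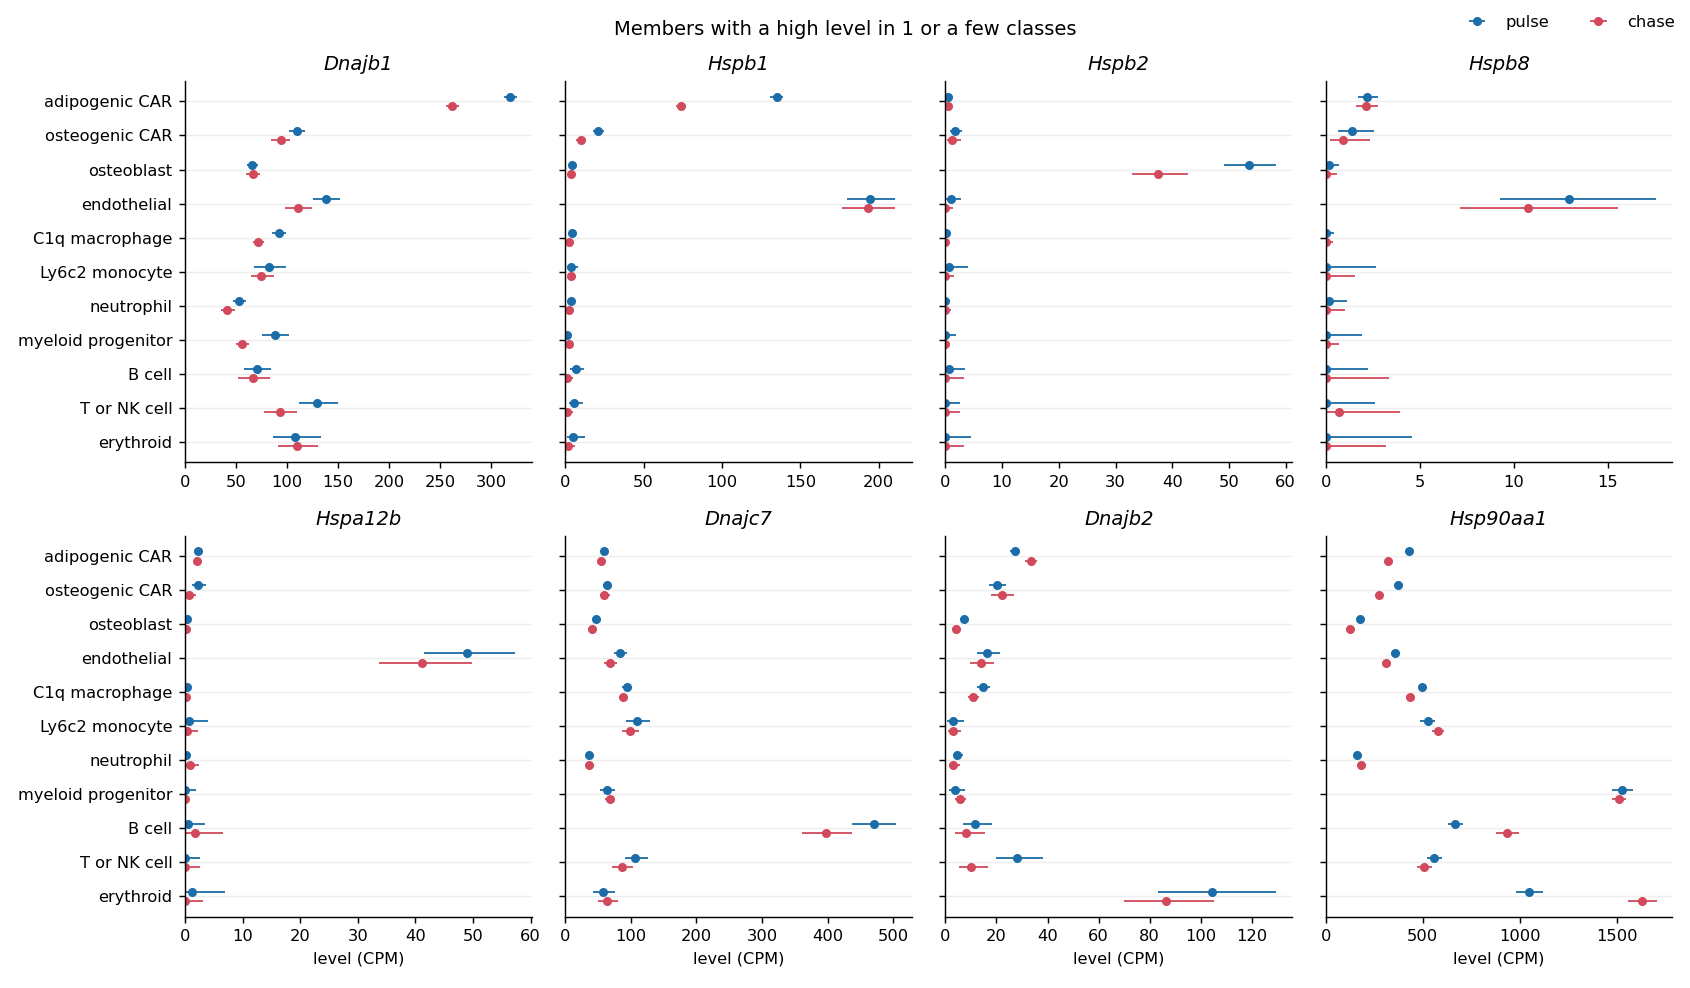
Level in CPM (x axis) of 8 members across cell classes (y axis) for the pulse (blue) and chase (red) libraries, with exact 95% intervals for counting error. Dnajb1 was highest in adipogenic CAR cells, Hspb2 in osteoblasts, Hspa12b and Hspb8 in endothelial cells, Dnajc7 in B cells and Dnajb2 in erythroid cells, in both libraries.

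The endoplasmic reticulum members were highest in antibody-secreting plasma cells, 3724 and 4372 CPM as a sum, from only 15 and 55 cells. That was 2.88-fold (2.65 to 3.13) and 4.47-fold (4.18 to 4.78) above B cells, while the stress-inducible sum in plasma cells was 0.394 and 0.178 of the B-cell level. Immunoglobulin genes took 53.3% and 59.7% of plasma-cell UMIs. Hsp90b1, the Hsp90 of this compartment, was 3.44-fold and 6.29-fold above B cells. Dnajc3, a J-domain protein that also inhibits the kinase PERK, was 5.06-fold and 5.35-fold above. Dnajb9, a J-domain partner of Hspa5, was 4.67-fold and 4.07-fold above, and Dnajb11, another such partner, 4.36-fold and 3.02-fold.

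Among the larger classes the adipogenic CAR cells, which secrete CXCL12 and other factors, had the highest endoplasmic reticulum sum, 3326 and 3234 CPM. Osteogenic CAR cells had 2727 and 2620 CPM and osteoblasts 1212 and 1183 CPM. Hspa5 was at 1388 and 1262 CPM in adipogenic CAR cells, 978.5 and 981 CPM in C1q macrophages and 253 and 164 CPM in neutrophils. Hsp90b1 was at 1042 and 1056 CPM in adipogenic CAR cells and at 373 and 385 CPM in osteoblasts. The order from adipogenic CAR cell to osteoblast was thus the same for Hspa5, Hsp90b1 and the sum.

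The mitochondrial members had a different order across the stroma. Their sum was at 530.3 and 397 CPM in adipogenic CAR cells and at 648 and 482 CPM in osteogenic CAR cells, so the adipogenic cells were at 0.819 and 0.824 of the osteogenic level. The highest sums were in osteoclasts, 2323 and 1949 CPM, and, among classes of at least 50 cells in each library, in myeloid progenitors in the pulse library, 1284 and 1390 CPM, and erythroid cells in the chase library, 1157 and 1511 CPM. Hspd1 (Hsp60) and Hspe1 (Hsp10) form the folding chamber of the mitochondrial matrix and lie head to head on chromosome 1. Hspd1 spans 55077835-55088243 on the minus strand and Hspe1 spans 55088132-55091307 on the plus strand, so their annotated ends overlap, and the heat shock units printed above lie inside the annotated span of Hspd1 and just before the start of Hspe1. In osteoclasts Hspd1 was at 728 and 632 CPM and Hspe1 at 884 and 738 CPM. In adipogenic CAR cells Hspd1 was at 128 and 95.9 CPM and Hspe1 at 158 and 101 CPM. Hspa9, the Hsp70 of the matrix, was at 69.8 and 60.6 CPM in CAR cells.

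Between the libraries, most chaperone transcripts were slightly lower in chase than in pulse CAR cells. The chase-to-pulse ratio was 0.860 (0.849 to 0.871) for the stress-inducible sum, 0.883 (0.876 to 0.890) for the constitutive sum, 0.978 (0.970 to 0.987) for the endoplasmic reticulum sum and 0.741 (0.724 to 0.758) for the mitochondrial sum. A member was counted as past the fold where its ratio was beyond 1.5-fold with an interval that excluded 1 and with at least 50 UMIs over both libraries. By that rule 2 of 61 members were higher in chase and 4 of 61 were lower, where 7.06% of 13128 genes were higher and 6.41% were lower. The members' shares, 3.28% and 6.56%, were near or below the background. The median log2 ratio was -0.13 over the members and -0.02 over all genes.

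The 2 higher members in CAR cells were Hspa2, an Hsp70 best known from the testis, at 9.71 and 18.1 CPM (ratio 1.86, 1.63 to 2.14), and Dnajc28 with 26 and 41 UMIs (2.04, 1.22 to 3.47). Among the 4 lower ones were Hspb1, at 113 and 64.2 CPM, Hspe1, at 166 and 103 CPM (0.623, 0.596 to 0.651), and Dnajb3, at 2.15 and 1.32 CPM (0.615). Hspd1, the partner of Hspe1, had a ratio of 0.743 and Hspa9 one of 0.868. By role, the ratio was below 1 for 5 of 8 stress-inducible, 12 of 13 constitutive, 5 of 10 endoplasmic reticulum and 7 of 8 mitochondrial members. The share of all genes with a ratio below 1 was not counted. Their median log2 ratio was itself negative, -0.02, so these counts have no exact background. Among the constitutive ones Hspa8 had a ratio of 0.898 and Hsp90ab1 one of 0.846, while Dnajb2 was the one above 1, at 1.23.

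Within the stress-inducible group the members did not move as one. Hspb1 (0.568), Hsph1 (0.712), Hsp90aa1 (0.756) and Dnajb1 (0.848) were lower in chase CAR cells. Dnaja1 had a ratio of 0.944. Dnajb4 (1.14) was higher, and Hspa1a (1.08) and Hspa1b (1.07) were close to 1. In the endoplasmic reticulum Hspa5 had a ratio of 0.910, Hsp90b1 one of 1.02 (1.00 to 1.03), and Dnajc3 and Dnajb9 both 1.14. The near-even sum of that group therefore combined members on either side of 1.

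**Figure D4:**
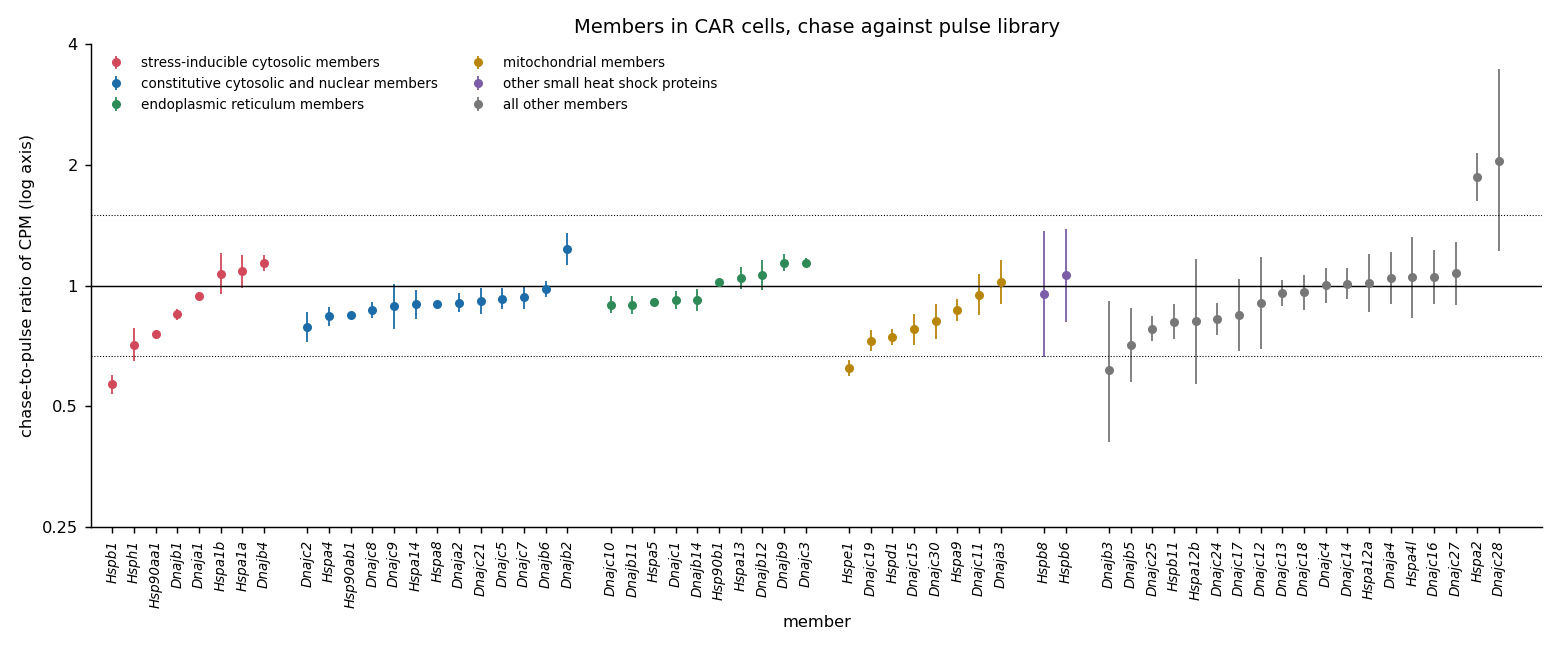
Chase-to-pulse ratio of CPM in CAR cells (y axis, log scale) for members with at least 50 UMIs (x axis), coloured by role group, with exact 95% intervals for counting error and dotted lines at the 1.5-fold rule. Most constitutive and mitochondrial members lie below 1, Hspb1 (0.568) is the lowest point drawn and Dnajc28 (2.04) the highest.

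Different clusters held most of the adipogenic CAR cells in each library. Of 7 CAR clusters, one had 76 pulse and 2039 chase cells, and others had 1460 and 62 or 1238 and 53, so the CAR class compares partly different states. Within the 7 clusters the mitochondrial ratio was below 1 in 7, from 0.737 to 0.882, and the stress-inducible ratio in 6, from 0.744 to 1.03. The endoplasmic reticulum ratio was below 1 in 1 of 7. The ratio of the immediate early genes, described next, was below 1 in 2 of 7, from 0.965 to 1.64. Those were the clusters of 76 and 2039 and of 1460 and 62 cells, where the stress-inducible ratios were 0.803 and 0.744, so both went the same way there. CAR cells of the chase library were also shallower, with a median of 6810 UMIs against 8278.

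Chaperone genes outside the 73 gave the setting. All 8 subunits of TRiC, the cytosolic chaperonin, had a ratio below 1 in CAR cells, though none was past 1.5-fold. Their median log2 ratio was -0.39, beside -0.02 over all genes. Cct3 (0.718), Cct8 (0.736) and Cct4 (0.752) were farthest from 1. Ribosomal protein genes as a sum had a ratio of 0.794, and their part in these differences was not tested. Of 18 heat shock factors and co-chaperones, 1 was past the fold upwards, Fkbp5, a glucocorticoid-responsive Hsp90 partner, at 40.4 and 72.3 CPM (1.79). Of 16 unfolded protein response genes, 1 was past it downwards, Manf, at 272 and 170 CPM (0.625), while Ddit3 had a ratio of 1.30. Of 17 immediate early genes, 6 were higher and 1 lower. Their sum was at 22418 and 30704 CPM (ratio 1.37), opposite to the stress-inducible chaperones in the class as a whole, with Ier3 at 2.41 and Atf3 at 0.551.

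In C1q macrophages 5 of 55 members were lower in chase and 0 were higher, where 5.05% of 10423 genes were lower and 3.7% were higher. The members' share lower was 9.09%. That count holds Hspa1a and Hspa1b as separate members, although the split between them is uncertain. It also holds Hspb1, which is not read as a macrophage value. The share is therefore not taken as above the background. The 5 were Hspa1b, at 196 and 83.4 CPM (0.425), Hspa1a, at 293 and 148 CPM (0.506), Hsph1, at 49.2 and 25.4 CPM (0.518), Hspb1 (0.541) and Dnajc21, a ribosome-assembly J-domain protein, at 36.8 and 23.3 CPM (0.633). Hspb1 rested on 40 and 25 UMIs in these cells, with shares treated above as too low to read. Its ratio there is thus not read as a macrophage value. Of the other 4, Hspa1a, Hspa1b and Hsph1 are stress-inducible members, and the stress-inducible sum had a ratio of 0.690 (0.672 to 0.708). The mitochondrial sum had a ratio of 0.734. In Ly6c2 monocytes no member of 42 was past the fold in either direction, where 3.39% of genes were higher and 2.62% lower, and the stress-inducible ratio was 0.997 (0.937 to 1.06). Immediate early genes had a ratio of 1.33 in C1q macrophages.

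Other classes gave smaller counts. In osteogenic CAR cells 3 of 54 members were higher and 2 lower (5.55% and 6.32% of genes), with Hspb1 at 0.469, Hspe1 at 0.598 and Hspa4l at 1.86. In osteoblasts 0 of 53 were higher and 3 lower (5.43% and 4.34%), among them Dnajc9, a histone chaperone, at 50.7 and 22.7 CPM. Endothelial cells had 0 of 53 higher and 1 lower (3.68% and 3.13%), Dnajb5 at 19.3 and 11.2 CPM. In neutrophils 1 of 39 was higher and 3 lower (4.23% and 7.88%), with Hspe1 at 33.6 and 12.5 CPM and Dnajc24 at 1.67. In myeloid progenitors 0 of 48 were higher and 1 lower (3.24% and 2.18%), Dnajb1 at 88.1 and 56.1 CPM. These shares were near the background of each class.

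Lymphoid and erythroid cells did not move in 1 direction. In B cells 5 of 38 members were higher and 2 lower (11.5% and 17.2% of genes), with Dnajc24 at a ratio of 2.13, Hspd1 at 1.78, Hspa9 at 1.72, Dnajc9 at 1.60, and Dnajc14 at 0.431. Among the B cells, the 201 and 41 mature cells had 0 of 23 members higher and 5 lower (3.78% and 8.65% of genes), and the Vpreb3 cells 4 of 26 higher and 1 lower (5.75% and 8.97%). In erythroid cells 1 of 31 was higher, Hsp90aa1 at 1047 and 1629 CPM (1.56), and 0 lower (7.71% and 4.26%). In T or NK cells 3 of 41 were higher and 5 lower (9.2% and 6.37%), among them Hspa1a at 9.36 and 37.1 CPM (3.96, 2.13 to 7.93) and Dnajb2 at 28.1 and 9.99 CPM (0.356). The summed level of Hspa1a and Hspa1b in T or NK cells, given above, differed less between the libraries than Hspa1a alone. The makeup of these classes moved with the result. T or NK cells fell mainly in 1 cluster in the pulse library (425 of its cells, against 110 in chase), where Hspa1a and Hspa1b were at 23.8 and 15.4 CPM, and mainly in another in the chase library (44 and 217 cells), where they were at 62.7 and 98.8 CPM. B cells likewise fell mainly in 1 cluster in the pulse library (411 and 60 cells; stress-inducible sum 1084 and 894 CPM) and in another in the chase library (103 and 94 cells; 1512 and 1645 CPM).

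Within a class, the stress-inducible members went with the immediate early genes from cell to cell. Adipogenic CAR cells were ordered by the share of their UMIs in immediate early genes, and the lowest and highest 25% were compared as a description of a range, not of cell types. The stress-inducible sum was 861 CPM in the lowest and 2253 CPM in the highest 888 pulse cells, and 838 and 1804 CPM in the lowest and highest 881 chase cells. Hspa1a and Hspa1b together were at 18.0 and 67.3 CPM in pulse and 28.4 and 67.9 CPM in chase. The constitutive sum also differed, 2938 and 4426 CPM in pulse and 2687 and 3845 CPM in chase. The endoplasmic reticulum sum differed less, from 3086 to 3554 CPM in pulse and from 3114 to 3204 CPM in chase, and the mitochondrial sum was lower in the highest cells, 495 against 539.8 CPM and 368 against 441 CPM. The highest cells were also deeper, with medians of 7950 against 5877 UMIs in pulse and 6243 against 4959 UMIs in chase. C1q macrophages showed the same direction for Hspa1a and Hspa1b, 344 and 643 CPM in pulse and 111 and 339 CPM in chase, although there the highest cells were shallower. Endothelial cells did so in pulse, 51.7 and 160.4 CPM, and not in chase, 132 and 95.5 CPM. Whether handling, depth or cell state goes with these differences was not tested.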

How the data were processed

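The authors deposited raw UMI counts per gene and barcode for 2 libraries made with the 10x Genomics Single Cell 3′ kit v3.1, per the labels' protocols. Cell Ranger 6.0.2 made the matrices, per the file headers. A different version, Cell Ranger 2.1.1, and the build mm10 stand in the submitters' processing notes. No source used here gives the annotation.

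Cells with at least 500 genes, 1000 UMIs and under 10% mitochondrial UMIs were kept, and 178 and 110 cells that Scrublet (scanpy 1.11.5) called doublets were removed from each library. Cells were gated on marker UMIs per 10000. Cells with no gate (443 and 440), several gates (564 and 695) or a class too small to describe (15 and 22) were left out of classes, and 235 and 213 lay within 20% of the CAR minimum. Counts were summed per class and divided by class totals (CPM). Log2 ratios carry a prior count of 0.5. Intervals are exact (Poisson for levels, conditional for ratios, Clopper-Pearson for shares) at 95%, and cover counting error only. With 1 library per time, no test was run. The interval and fold rule was tried on simulated CAR counts of 13129 genes. These were drawn with counting error only, as the intervals assume, so the trial checks the calculation. It cannot show how the rule fares with spread between cells, mice, sorts or libraries. Joint Leiden clusters (leidenalg 0.10.2, 15 neighbours, 30 components, resolution 1) were an alternative to the gates.

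The members and gene lists were chosen with earlier results of these data known. Gate minimums, the C1q, Ly6c2 and B-cell sub-gates and the split by immediate early share were set after seeing the data. Named genes are a fixed set of 15 well-known members, the 5 highest and 5 lowest ratios in CAR cells, the extreme members of each class, members high in 1 class, and up to 3 genes of each outside list. Others named, among them Dnajb4, Dnajb11, Dnajc21 and Cryab, were added after their values were seen. Gene positions are from GENCODE M21 on GRCm38, and promoters from RefSeq GRCm38.p6. The values of 1 member are not reported here, although it is included in the counts.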

Additional observations from a re-analysis of the deposited data

Results flagged for a closer look

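In 9 cases the summed level of a role group moved one way from pulse to chase in CAR cells and the other way in another class, with intervals that exclude 1 on both sides. Against 0.860 in CAR cells, the stress-inducible ratio was 1.23 in B cells and 1.36 in erythroid cells. Against 0.883, the constitutive ratio was 1.03 in myeloid progenitors, 1.29 in B cells and 1.25 in erythroid cells. Against 0.978, the endoplasmic reticulum ratio was 1.11 in T or NK cells. Against 0.741, the mitochondrial ratio was 1.08 in myeloid progenitors, 1.51 in B cells and 1.31 in erythroid cells. The lymphoid classes were made up of different clusters in each library. In the cluster with 411 pulse and 60 chase B cells the stress-inducible ratio was 0.825, the constitutive 0.865 and the mitochondrial 0.832. This was the direction seen in CAR cells, although the interval of 0.832 included 1. In the cluster with 103 and 94 the ratios were 1.09, 1.18 and 1.44, and the interval of 1.09 included 1. In the T or NK clusters the endoplasmic reticulum ratio was 1.06 and 0.949, both with intervals that include 1. The differences between classes were not tested, since each time has 1 library.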

How the results depend on the processing

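Of the main results, 45 of the values under other settings stayed within the main interval or within 1.5 times the main count, and 15 moved. Of the other values, 340 stayed, 29 moved and 3 changed direction. With mitochondrial and ribosomal protein genes out of the total, the CAR ratios were 0.842 for the stress-inducible, 0.865 for the constitutive and 0.958 for the endoplasmic reticulum sum. With every cell weighing the same, the constitutive CAR ratio was 0.892 and the pulse gap of Hspa1a and Hspa1b between C1q macrophages and CAR cells 11.7-fold. At a fold of 2, 1 member was higher and 1 lower in CAR cells. Shares of cells with an Hspa1a or Hspa1b UMI in C1q macrophages were 57.6% and 41.6% unthinned, and 22.3% and 9.62% for at least 2 UMIs. In CAR cells they were 22.1% and 20.4% unthinned, and 1.06% and 1.30% for at least 2 UMIs. The constitutive ratio of myeloid progenitors, 1.03, turned to 0.992 with clusters in place of gates and to 0.987 with every cell weighing the same, and that of Hsp90b1 in CAR cells, 1.02, to 0.997 without mitochondrial and ribosomal protein genes. The cause was not tested. Depth limits the small classes most: 15 plasma cells and 36 osteoclasts carry the pulse values. No paired analysis was possible because each time has 1 library.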
